A study of Mus musculus with 24 samples.

Results

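The 5 autosomal genes of the Gata family, Gata2, Gata3, Gata4, Gata5 and Gata6, were followed through every chromatin immunoprecipitation sequencing (ChIP-seq) peak list of 4 mouse small cell lung cancer lines. They were taken by name as a gene family, and each was measured as the length covered by peaks over the gene and 10 kb of flank at each end. All 5 were found among the 21887 protein-coding genes measured in the same way. Lines 159-1 and 1014 came from sgControl RPP tumours and are wild type for Kdm6a. Lines 236L and 236R came from sgKdm6a RPP tumours and are called the mutant lines here. RPP is a mouse model of small cell lung cancer in which Rb1, Trp53 and Rbl2 are deleted, so all 4 lines share those engineered losses. All were early-passage cultures without treatment, collected 24 h after plating in the same HITES medium. The labels do not say if 236L and 236R stem from different animals, and every p-value here reflects the spread of these cultures alone. KDM6A was mapped in 159-1 and 1014 only, after an added crosslink with 2 mM disuccinimidyl glutarate.

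GATA factors are zinc finger transcription factors that bind the core word GATA in DNA and act early in choosing a cell's lineage. Gata2 keeps blood stem and progenitor cells and mast cells, Gata3 directs T helper and innate lymphoid cells as well as mammary and sympathetic neurons, and Gata4, Gata5 and Gata6 act in heart, gut and lung endoderm. H3K4me1 marks enhancers, H3K4me2 marks promoters and enhancers, and H3K27me3 is the mark that the Polycomb complex PRC2 places on silent developmental genes. KDM6A removes methyl groups from H3K27 and sits in complexes that methylate H3K4, and Polycomb-marked developmental genes such as the Gata family are a common place to look for its effects.

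The promoters are shown because H3K4 methylation and H3K27me3 were both found at 3 of the 4 windows in at least 1 line and because the Gata3 promoter carried H3K27me3 in the control lines alone. RefSeq's promoter table for GRCm38.p6, which spans 250 bases before to 50 bases after a start site, held 3 of the 5 genes, with 2 start sites for Gata2. Gata4 and Gata6 had no entry. The sequences are written 5′ to 3′ along the gene, with every CG dinucleotide in capitals.
Gata2, first start site, chr6:88193641-88193940, plus strand: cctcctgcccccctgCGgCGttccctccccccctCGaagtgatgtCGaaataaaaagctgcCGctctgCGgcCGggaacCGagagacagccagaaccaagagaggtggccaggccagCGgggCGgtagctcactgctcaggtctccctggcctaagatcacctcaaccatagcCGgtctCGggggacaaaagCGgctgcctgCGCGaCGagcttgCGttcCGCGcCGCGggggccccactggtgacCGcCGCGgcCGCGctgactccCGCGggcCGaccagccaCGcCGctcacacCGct
Gata2, second start site, chr6:88198414-88198713, plus strand: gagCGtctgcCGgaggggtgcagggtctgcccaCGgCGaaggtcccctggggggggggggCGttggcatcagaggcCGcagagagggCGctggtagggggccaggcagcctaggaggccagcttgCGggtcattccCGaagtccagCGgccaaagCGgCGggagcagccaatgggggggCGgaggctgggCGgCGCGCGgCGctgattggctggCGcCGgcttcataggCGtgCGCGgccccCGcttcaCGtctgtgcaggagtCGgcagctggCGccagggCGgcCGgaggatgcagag
Gata3, chr2:9878551-9878850, minus strand: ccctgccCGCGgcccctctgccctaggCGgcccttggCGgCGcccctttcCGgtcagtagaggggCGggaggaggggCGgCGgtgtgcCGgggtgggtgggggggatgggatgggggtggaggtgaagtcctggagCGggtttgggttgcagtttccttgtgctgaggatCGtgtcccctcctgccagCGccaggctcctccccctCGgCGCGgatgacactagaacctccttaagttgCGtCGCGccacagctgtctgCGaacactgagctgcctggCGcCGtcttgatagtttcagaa
Gata5, chr2:180334630-180334929, minus strand: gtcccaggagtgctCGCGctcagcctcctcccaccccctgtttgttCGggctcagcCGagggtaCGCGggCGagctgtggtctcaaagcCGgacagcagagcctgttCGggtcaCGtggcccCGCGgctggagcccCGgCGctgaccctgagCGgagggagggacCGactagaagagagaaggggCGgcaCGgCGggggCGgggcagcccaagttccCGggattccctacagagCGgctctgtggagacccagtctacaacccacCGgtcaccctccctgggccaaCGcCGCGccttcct
All 4 windows were rich in CG. The Gata2 windows held 32 and 29 CG dinucleotides, that of Gata3 held 22 and that of Gata5 held 26, against a median of 13 over 21263 promoters of the same length. GATA words were searched on both strands in 4 forms that share the core GATA and were counted separately. One pair begins with A, namely AGATAA, which ends in the letter A, and, with a different last letter, AGATAG. The other pair begins with T, namely TGATAA and, with the last letter likewise exchanged, TGATAG. Among these windows only that of Gata3 held such a word, TGATAG at position 287 of 300, and 26.0% of all promoter windows held at least 1. A match is a run of letters and not a measured binding site.

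The peak lists differed in length, which touches each value below. They covered 109.2 to 134.6 Mb for H3K4me1 and 73.7 to 87.6 Mb for H3K4me2. For H3K27me3 the cover was 45.4 Mb in 159-1, 110.3 Mb in 1014, 13.8 Mb in 236L and 30.5 Mb in 236R. KDM6A peaks covered 34.6 Mb in 159-1 and 27.02 Mb in 1014. The depth behind the lists is unknown, and fewer marked sites and a less enriched library cannot be told apart. In bulk cultures, fewer cells with a mark and less of the mark in each cell cannot be told apart either. For H3K4me2 the deposited names of the 159-1 and 1014 lists name the other line, so values of this mark in those lines could be exchanged; a comparison of genotypes is the same either way. Neuroendocrine markers of small cell lung cancer, such as Insm1, were read, and 9 of 9 carried H3K4me2 in every line. So did 4 of 4 fibroblast markers and 4 of 4 lung epithelium markers. Of the 21887 genes, 18132 had H3K4me2 cover in at least 1 line, so this count cannot check the cell type label. Line 236L stood apart: 8 of the 9 neuroendocrine genes also carried H3K27me3 there, against 1 in 159-1, 2 in 1014 and 0 in 236R. It also had the highest cover of 6 macrophage markers, with 101 kb of H3K4me1 in sum against 11.1 to 19.9 kb in the other lines, and 59.6 kb of H3K4me2 against 8.62 to 14.1 kb. Its Ptprc gene, the common leukocyte antigen, had 16.1 kb of H3K4me2 where both control lines had 0. The 4 Y-linked genes examined had H3K4me2 in both control lines and 0 in both mutant lines, so the sex chromosomes and the Kdm6a genotype cannot be told apart. The Kdm6a locus had H3K4me2 of 3.10, 4.38, 6.01 and 4.66 kb in 159-1, 1014, 236L and 236R, and these marks do not check the mutation.

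The genotypes were called separated at a gene when the lines of one all exceeded those of the other by 2 kb of cover or more, and such genes are given below as having more or less of the mark in the mutant lines. By this rule Gata3 had more H3K4me1, more H3K4me2 and less H3K27me3 in the mutant lines. Gata4 had more H3K4me2 and less H3K27me3, Gata6 had more H3K4me1, and Gata5 had less H3K4me1. Gata2 was not counted for any mark. More H3K4me1 was thus counted for 2 of 5 members and for 5.3% of all genes, and less for 1 member and 7.45% of genes. More H3K4me2 was counted for 2 members and 1.36% of genes, and less for 0 members and 6.37% of genes. More H3K27me3 was counted for 0 members and 0.425% of genes, and less for 2 members and 6.43% of genes. With 2 lines against 2, an exact two-sided permutation test cannot give a p below 0.33, and it gave 0.33 for each of these separated members.

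**Figure D1:**
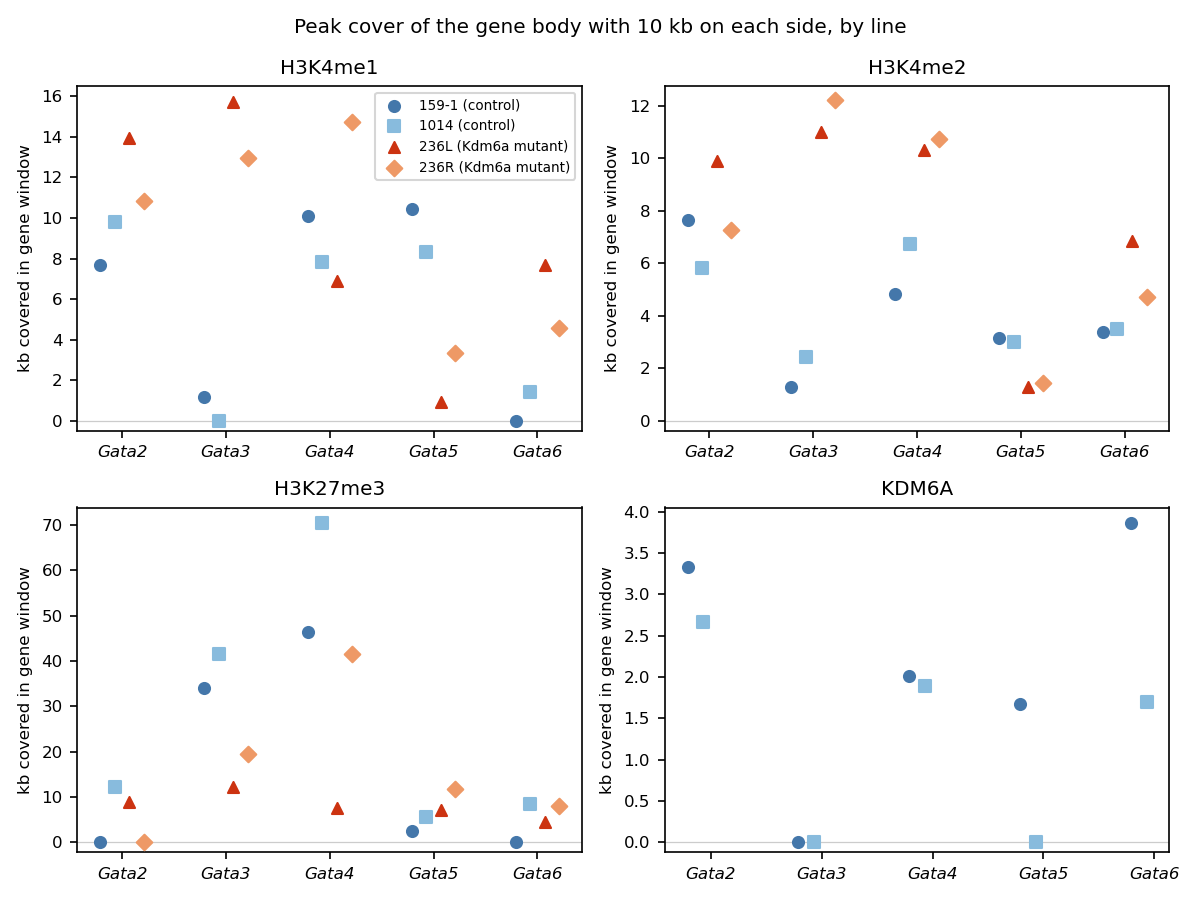
Length covered by peaks (kb, vertical axis) over the body and 10 kb flanks of each Gata gene, with 1 panel per mark and 1 point per line. Gata3 shows the widest separation of the genotypes, where H3K4me2 covered 1.30 and 2.44 kb in 159-1 and 1014 against 11.0 and 12.2 kb in 236L and 236R, and KDM6A was mapped in the control lines only.

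Gata3 (chr2:9857078-9887953, minus strand), which specifies T helper and innate lymphoid cells, had the clearest contrast. H3K4me1 covered 1.19 kb in 159-1, 0 in 1014, 15.7 kb in 236L and 12.95 kb in 236R. H3K4me2 covered 1.30, 2.44, 11.0 and 12.2 kb in the same order. Both mutant lines lay far above both control lines in each of these marks. H3K27me3 covered 34.2, 41.5, 12.1 and 19.4 kb, so that both mutant lines lay 14.8 kb or more below the lower control line. The mean difference, mutant minus control, was 13.7 kb for H3K4me1, 9.74 kb for H3K4me2 and -22.0 kb for H3K27me3. Among the 21887 genes, 99.9% had a lower difference in kb of H3K4me2 and 1.76% a lower difference in kb of H3K27me3. With the lists brought to equal covered length, the H3K27me3 difference at Gata3 was -12.8 kb. No KDM6A peak lay in the Gata3 window in either control line.

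The H3K4 methylation found only in the mutant lines at Gata3 lay on ground that carried H3K27me3 in the control lines. Segments with H3K4me2 in both mutant lines and neither control line summed to 7.67 kb, and 100% of this length was under H3K27me3 in both control lines. The same held for 9.69 kb of H3K4me1. Of the whole Gata3 window, H3K27me3 covered 67.1% in 159-1 and 81.5% in 1014. In at least 1 mutant line, 6.77 kb of this H3K4me2 and 8.36 kb of this H3K4me1 also carried H3K27me3. Within the gene, the H3K4me2 segments lay at chr2:9877242-9878485, chr2:9880505-9882368 and chr2:9882792-9884670, on both sides of the annotated start site at 9878600. Gata3 had 1 promoter entry, for this start site, while its gene body runs further upstream, to 9887953. Upstream of the gene body, beyond its higher-coordinate end, further segments lay at chr2:9888603-9890511 and chr2:9895709-9896486. In both mutant lines a single wide H3K4me2 peak crossed the start site, 8.02 kb wide in 236L and 7.43 kb in 236R, where the control peaks there were 1.30 and 2.01 kb wide.

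H3K27me3 parted at the Gata3 start site. The promoter window printed above was covered over 100% of its length in both control lines and over 0% in both mutant lines. This state was seen at 426 of 21263 promoter windows, or 2.0%, and the reverse, with H3K27me3 in the mutant lines alone, at 0.207%. None of the other Gata windows had either state. For H3K4me1 and H3K4me2, 0 of the 4 Gata windows were marked in the lines of one genotype alone. Over all promoters, 1.08% had H3K4me1 in the control lines alone and 3.31% in the mutant lines alone, and for H3K4me2 these shares were 0.673% and 1.06%. The H3K27me3 segment at the start site that the control lines shared and both mutant lines lacked ran over chr2:9878451-9880891, or 2.44 kb. It was the longest of 10 such segments of at least 0.5 kb spread over the Gata3 window. All H3K27me3 of both control lines and neither mutant line there summed to 12.1 kb. On both sides of the start-site segment the mutant lines had H3K27me3, and 10.2 kb of the window carried the mark in all 4 lines. H3K4me2 covered 100% of the promoter window in all 4 lines. H3K4me1 covered 98.3% of it in 159-1, 0% in 1014 and 100% in both mutant lines. The H3K27me3 state of the promoter was the same with peaks of a deposited −log10 q of at least 3 and with lists brought to equal covered length, both tried after seeing the data.

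**Figure D2:**
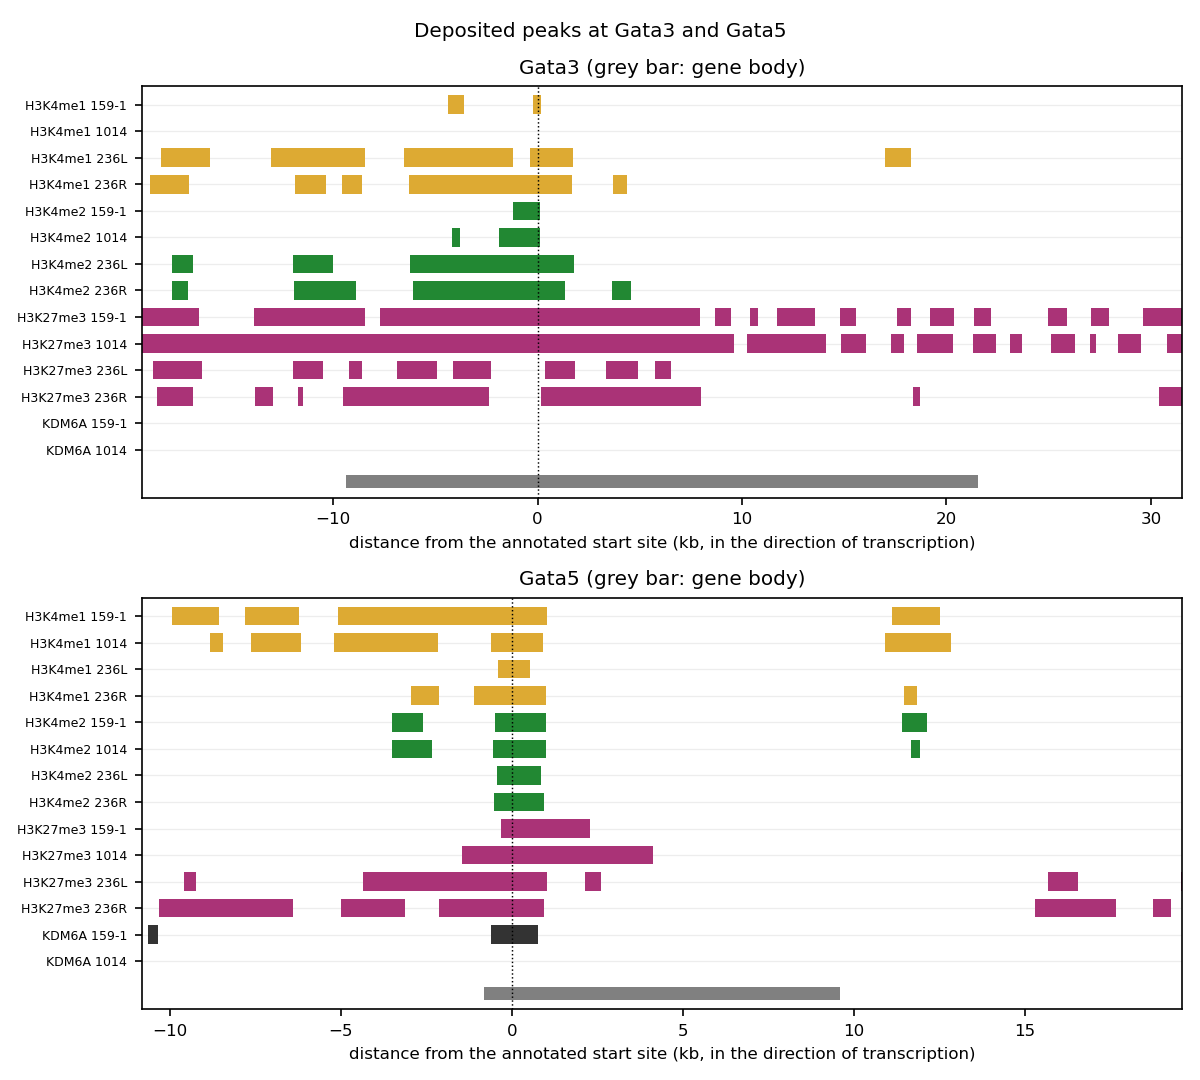
Deposited peaks in the windows of Gata3 and Gata5, drawn by distance from the annotated start site (kb, in the direction of transcription), with 1 row per list and the gene body as a grey bar. At Gata3 the H3K27me3 rows of both mutant lines are open at the start site while both control lines cover it, and at Gata5 the upstream H3K4me1 peaks of the control lines are shorter or missing in the mutant lines.

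H3K4me2 and H3K27me3 overlapped in part of the Gata3 window in every line. All of the H3K4me2 in the control lines lay under H3K27me3 of the same line, 1.30 kb in 159-1 and 2.44 kb in 1014. Both marks lay on 7.08 kb in 236L and 7.58 kb in 236R, or 64.4% and 62.1% of their H3K4me2. The mutant lines thus had both more H3K4me2 with H3K27me3 and more H3K4me2 without it, of which the control lines had none. In the control lists the H3K4me2 peak at the Gata3 start site had a deposited fold enrichment of 3.63 in 159-1 and 3.35 in 1014, while the strongest Gata2 peak of the same lists had 12.8 and 15.6. In 236L and 236R the peak crossing the Gata3 start site had 9.78 and 10.1, beside 15.2 and 13.0 for the strongest Gata2 peak. The strongest Gata3 peak of 236L lay upstream, at chr2:9888603-9890566, and had 11.6. These folds are the authors' own per peak and rank peaks only within a list.

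Gata4 (chr14:63198914-63271712), a regulator of heart and endoderm, had the longest H3K27me3 cover of the family in the control lines. H3K27me3 covered 46.3 kb in 159-1, 70.4 kb in 1014, 7.54 kb in 236L and 41.6 kb in 236R. The genotypes did not overlap, but 236R lay only 4.70 kb below 159-1, and the mutant lines differed more from each other than that. H3K4me2 covered 4.83, 6.74, 10.3 and 10.7 kb, with both mutant lines at least 3.58 kb above both control lines. H3K4me1 covered 10.1, 7.83, 6.90 and 14.7 kb, and here the genotypes overlapped, with 236L lowest and 236R highest. The separation in H3K27me3 was no longer counted when the lists were brought to equal covered length, where the mean difference was -20.4 kb against -33.8 kb. The size also rested on single lines, with -16.7 kb without 236L, -21.7 kb without 1014 and -50.8 kb without 236R.

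The H3K4me2 found in both mutant lines and neither control line at Gata4 came to 4.74 kb, all of it under H3K27me3 of both control lines. Of the whole Gata4 window, H3K27me3 covered 49.9% in 159-1 and 75.8% in 1014. This H3K4me2 lay mainly in 2 segments, chr14:63245775-63248555 (2.78 kb) and chr14:63268434-63269858 (1.43 kb). The first adjoined short control peaks of 0.480 kb in 159-1 and 0.892 kb in 1014, where the mutant lines had single peaks of 4.51 kb in 236L and 4.29 kb in 236R. The second had no H3K4me2 peak in either control line, and 41.0% of it lay under a KDM6A peak of 1014. All 4.74 kb also carried H3K27me3 in at least 1 mutant line. KDM6A covered 2.01 kb in 159-1 and 1.90 kb in 1014, with 3 peaks in each line, and in both lines it was 0 with peaks of a deposited −log10 q of at least 3. Of these peaks, only the peak at 56.7 to 57.1 kb from the lower-coordinate end of the gene in 159-1 was met in 1014. Neil2, which encodes a DNA glycosylase of base excision repair, was the only other gene body in any of the 5 windows, and the H3K4me2 peak of every line outside the lower-coordinate end of Gata4 overlapped its end. A KDM6A peak of 1014, 0.762 kb wide, lay within this H3K4me2 peak and so outside Gata4. With 2.5 kb on each side of Gata4, KDM6A covered 2.01 kb in 159-1 and 1.13 kb in 1014.

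Gata6 (chr18:11052510-11085636), which acts in lung and gut endoderm and in heart, carried its peaks in a compact block at its lower-coordinate end. H3K4me1 covered 0 in 159-1, 1.45 kb in 1014, 7.66 kb in 236L and 4.57 kb in 236R. H3K4me2 covered 3.38, 3.52, 6.84 and 4.73 kb, separated between the genotypes by 1.21 kb and so below the 2 kb needed for a count. More H3K4me2 by any amount held for 13.9% of all genes. H3K27me3 covered 0, 8.51, 4.49 and 8.13 kb, and its genotypes overlapped, because 159-1 had no peak. The control lines lay further apart here than the mutant lines did.

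The H3K4me1 that both mutant lines and neither control line had at Gata6 was partly under KDM6A peaks, which differed between the control lines. The shared segment, chr18:11050784-11053865, was 3.08 kb long, and 87.1% of it lay under a KDM6A peak of at least 1 control line, mainly 159-1. In 1014 a peak of 0.468 kb lay in it. KDM6A covered 3.86 kb in 159-1 as a single peak and 1.70 kb in 1014 as 2 peaks. With peaks of a deposited −log10 q of at least 3 the values were 3.86 kb and 0. The 3.20 kb of H3K4me2 that all 4 lines shared lay wholly under KDM6A of at least 1 control line. At Gata3, H3K4me1 shared by the mutant lines alone met KDM6A over 0 kb.

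**Figure D3:**
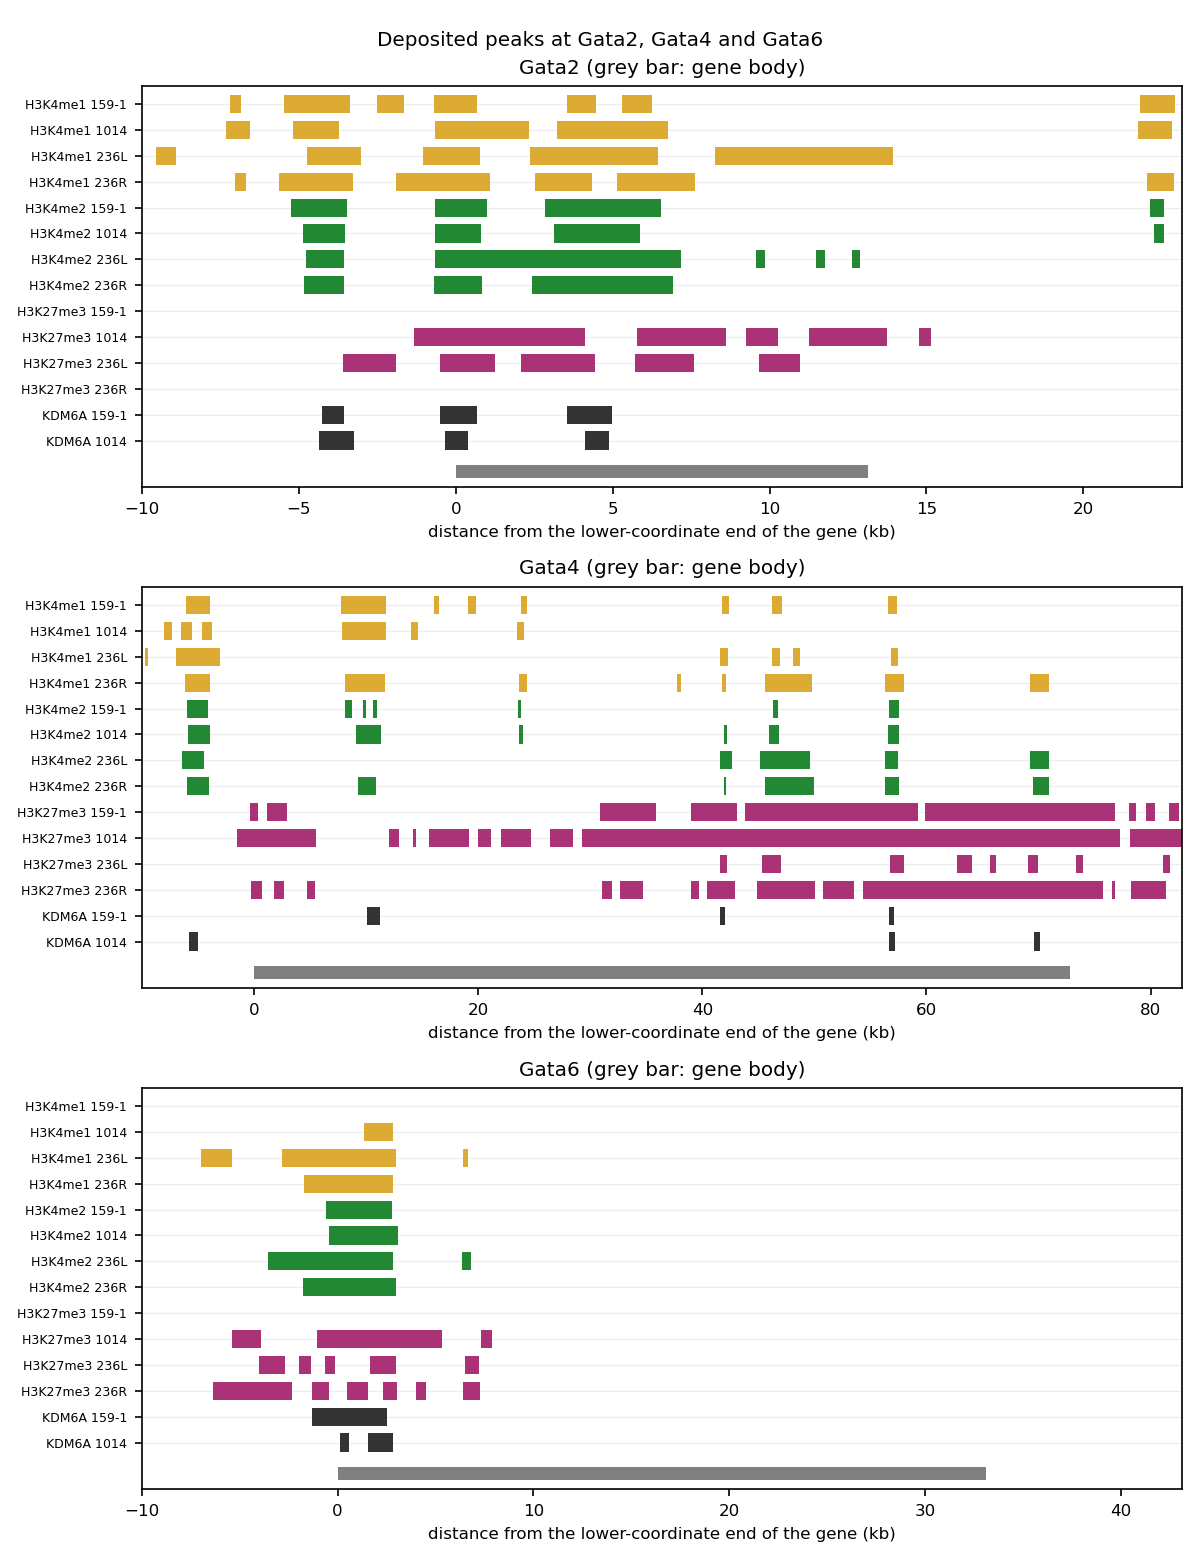
Deposited peaks in the windows of Gata2, Gata4 and Gata6, drawn by distance from the lower-coordinate end of each gene (kb), with 1 row per list and the gene body as a grey bar. H3K27me3 fills much of Gata4 in both control lines and in 236R and is broken into short peaks in 236L, and Gata6 peaks cluster at the gene's lower-coordinate end.

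Gata5 (chr2:180325088-180335503, minus strand), a regulator of heart and endocardium, had its differences in total cover in the opposite direction to Gata3. H3K4me1 covered 10.5 kb in 159-1, 8.35 kb in 1014, 0.934 kb in 236L and 3.33 kb in 236R, so that both mutant lines lay at least 5.02 kb below both control lines. H3K4me2 covered 3.15, 2.996, 1.30 and 1.46 kb, and H3K27me3 covered 2.61, 5.59, 7.13 and 11.7 kb. The genotypes did not overlap in either, with less H3K4me2 and more H3K27me3 in the mutant lines, but the separations of 1.54 and 1.53 kb were below 2 kb. Without overlap of any amount, less H3K4me2 held for 25.4% of all genes and more H3K27me3 for 2.13%. Of all genes, 99.4% had a lower difference in kb of H3K27me3 than Gata5. That difference, 5.33 kb in the mean, did not hold for stronger peaks alone: with a deposited −log10 q of at least 3 it was -0.105 kb, with 2.5 kb on each side of the gene it was -0.0605 kb, and with 50 kb it was -5.18 kb.

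The Gata5 promoter itself did not distinguish the lines. H3K4me1, H3K4me2 and H3K27me3 each covered 100% of its window in all 4 lines, a state that H3K27me3 had at 1.71% of promoters. KDM6A covered it in 159-1 and not in 1014. Over the whole Gata5 window KDM6A was 1.68 kb in 159-1, or 0.294 kb with a deposited −log10 q of at least 3. What differed lay mainly upstream. H3K4me1 shared by the control lines and missing in both mutant lines came to 4.83 kb, with the longest segments at chr2:180337632-180339754 and chr2:180340895-180342317. H3K4me2 of both control lines was missing from both mutant lines at chr2:180337290-180338188. The mutant lines shared H3K27me3 at chr2:180337810-180339049, which overlaps the first of these H3K4me1 segments and the H3K4me2 segment. Within the gene body H3K27me3 went the other way at chr2:180332537-180333667, where both control lines had it and both mutant lines lacked it. Over the window, H3K27me3 of the control lines alone came to 1.13 kb and that of the mutant lines alone to 3.16 kb. In sum 3.56 of the 4.83 kb of control-shared H3K4me1 carried H3K27me3 in a mutant line, and none of it carried H3K27me3 in a control line. All of the H3K4me2 of the mutant lines, 1.30 and 1.46 kb, lay under H3K27me3, against 41.6% in 159-1 and 52.6% in 1014.

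Gata2 (chr6:88193891-88207032, plus strand), which maintains blood stem cells and is also expressed in some neurons and endothelium, had the largest share of its window under H3K4me2 in both genotypes, though its range overlapped that of Gata3 in the mutant lines. For H3K4me1 it was first in the mutant lines, with 37.4% ± 6.58 (SD, n = 2), and second in the control lines, with 26.4% ± 4.53 beside 30.9% ± 4.92 at Gata5, where the ranges overlapped. H3K4me2 covered 7.64 kb in 159-1, 5.84 kb in 1014, 9.92 kb in 236L and 7.28 kb in 236R, and the genotypes overlapped. H3K4me1 covered 7.70, 9.83, 13.9 and 10.9 kb, with the mutant lines above the control lines by 1.03 kb. More H3K4me1 by any amount held for 25.1% of all genes. H3K27me3 covered 0, 12.2, 9.01 and 0 kb, so that each genotype had a line without any peak and a line with 5 peaks. KDM6A covered 3.33 kb in 159-1 and 2.67 kb in 1014, and all 3 peaks of each line met a peak of the other. With peaks of a deposited −log10 q of at least 3 it was 1.91 and 1.14 kb.

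At the 2 Gata2 promoters the lines split in ways that did not follow genotype. The first promoter window carried H3K4me1, H3K4me2 and KDM6A in every line mapped, while H3K27me3 covered it in 1014 and 236L and not in 159-1 or 236R. The second carried H3K4me2 in all 4 lines and KDM6A in both control lines, and no line had H3K27me3 there. H3K4me1 was missing from the second in 159-1 and 236R. Line 236L alone had an H3K4me1 peak 5.67 kb wide at 8.27 to 13.9 kb from the gene's lower-coordinate end, together with 3 short H3K4me2 peaks of 0.257 to 0.297 kb. This is the line with high cover of macrophage markers, and the part of such cells or of such a state in the 236L values was not tested. Without 236L the mean H3K4me1 difference at Gata2 was 2.09 kb against 3.63 kb.

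Gata1, the X-linked member, was read for reference only. It had no H3K4me2 and no KDM6A peak in any line mapped, and H3K4me1 of at most 0.827 kb, the value in 236L.

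The order of the members differed between the genotypes. In the control lines, H3K4me2 covered a mean of 20.3% ± 3.85 (SD, n = 2) of the window at Gata2, 10.1% ± 0.356 at Gata5, 6.49% ± 0.188 at Gata6, 6.23% ± 1.46 at Gata4 and 3.67% ± 1.58 at Gata3. The ranges of Gata6 and Gata4 overlapped, and the other neighbours did not. In the mutant lines the order was Gata2 with 25.9% ± 5.63, Gata3 with 22.8% ± 1.69, Gata4 with 11.3% ± 0.307, Gata6 with 10.9% ± 2.82 and Gata5 with 4.53% ± 0.370. Here Gata2 and Gata3 overlapped, as did Gata4 and Gata6. Gata3 had the lowest share in the control lines and stood beside Gata2 in the mutant lines, while Gata5 was second in the control lines and last in the mutant lines. For H3K27me3 the control lines had Gata3 at 74.3% ± 10.2 and Gata4 at 62.9% ± 18.3, overlapping, and both above 18.4% ± 26.0 at Gata2, 13.5% ± 6.94 at Gata5 and 8.01% ± 11.3 at Gata6, which overlapped in turn. In the mutant lines no neighbours separated, from 31.0% ± 10.7 at Gata5 to 11.9% ± 4.84 at Gata6. KDM6A in the control lines ran from 9.05% ± 1.42 at Gata2 to 0 at Gata3.

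Smaller separations were common among all genes. With separations of any amount, more H3K4me1 held for 3 members and 25.1% of genes, more H3K4me2 for 3 members and 13.9%, less H3K4me2 for 1 member and 25.4%, and more H3K27me3 for 1 member and 2.13%. The median difference over the 5 members was 3.63 kb for H3K4me1, 2.34 kb for H3K4me2 and -1.59 kb for H3K27me3, beside 0.203, 0 and 0 kb over all genes. Many genes have no cover of a mark in any line. Over the 18135, 18132 and 9634 genes with cover in a line, the medians were 0.711, -0.127 and -0.585 kb. Shares and ranks over all 21887 genes include the genes without cover. The counts and medians of the members describe 5 genes and are no test of the family.

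Single lines decided part of these counts. Without 236R, more H3K4me2 was counted for 4 members, Gata2 and Gata6 being added, while its share of all genes went from 1.36% to 10.3%. Without 1014, more H3K27me3 was counted for 2 members, Gata5 and Gata6, and 1.0% of genes, and without 236L for 1, Gata5, and 2.12%. Gata3 was counted for all 3 marks in the same direction whichever line was left out. Window width mattered for others: Gata5 was no longer counted for H3K4me1 with 2.5 kb on each side (-2.46 kb), nor Gata6 for H3K4me1 (3.01 kb) and Gata4 for H3K4me2 (3.13 kb) with 50 kb. limma, fitted to the covered share of the window over all genes with any cover, called 0 genes at an adjusted p under 0.05 in each mark, with 1666 genes for H3K4me1, 2704 for H3K4me2 and 380 for H3K27me3 at an unadjusted p under 0.05. For H3K4me2 the limma adjusted p was 0.147 at Gata3, 0.164 at Gata5 and 0.221 at Gata4. For H3K4me1 it was 0.539 at Gata3, Gata5 and Gata6, and for H3K27me3 0.530 at Gata3 and Gata4.

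**Figure D4:**
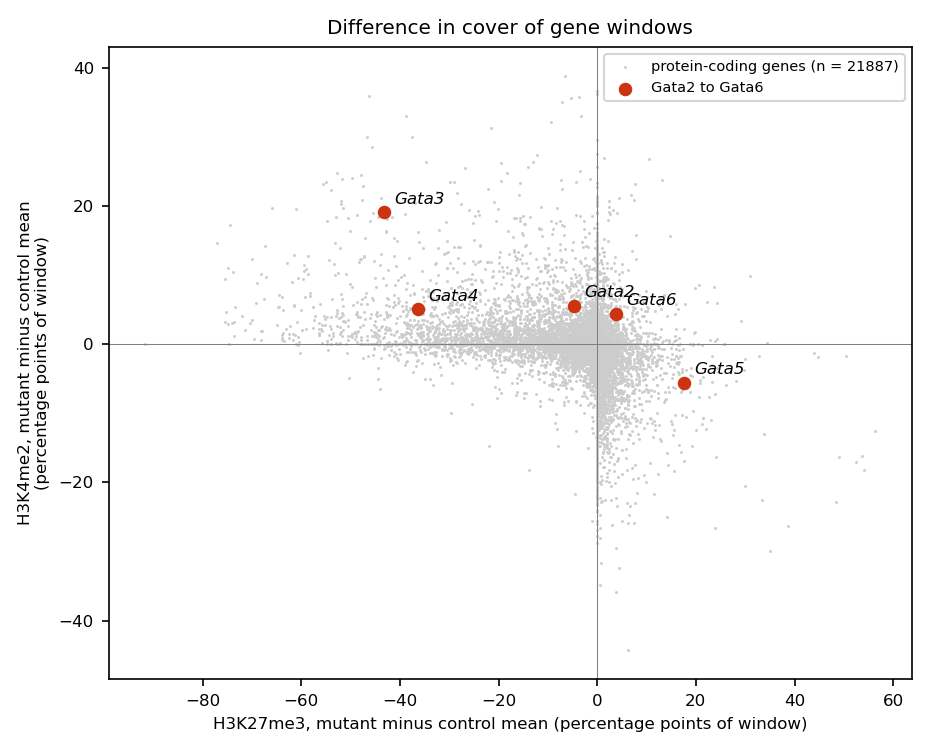
Mutant minus control mean of the percentage of each gene window under peaks (percentage points), for H3K27me3 (horizontal axis) and H3K4me2 (vertical axis), with 21887 protein-coding genes as grey points and the Gata genes in red. Gata3 (-43.3 and 19.1 points) and Gata4 (-36.4 and 5.11 points) lie to the upper left and Gata5 (17.5 and -5.57 points) to the lower right.

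Marks that met within a line separated the members in another way. The length with both H3K4me2 and H3K27me3 was 1.30, 2.44, 7.08 and 7.58 kb in 159-1, 1014, 236L and 236R at Gata3, and 1.39, 2.54, 3.73 and 7.16 kb at Gata4. Both genes had more such cover in each mutant line than in either control line. At Gata4 the distance between 1014 and 236L was below the 2 kb needed for a count. No share over all genes was taken for this measure. At Gata5 it was 1.31, 1.58, 1.30 and 1.46 kb, at Gata6 0, 3.52, 3.47 and 2.62 kb, and at Gata2 0, 2.53, 5.80 and 0 kb, and the genotypes overlapped in all 3. A bulk list does not show whether 2 marks sit on the same chromatin. Each sum pairs the lists by sample label, and in the control lines it would differ if the H3K4me2 lists were exchanged.

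**Figure D5:**
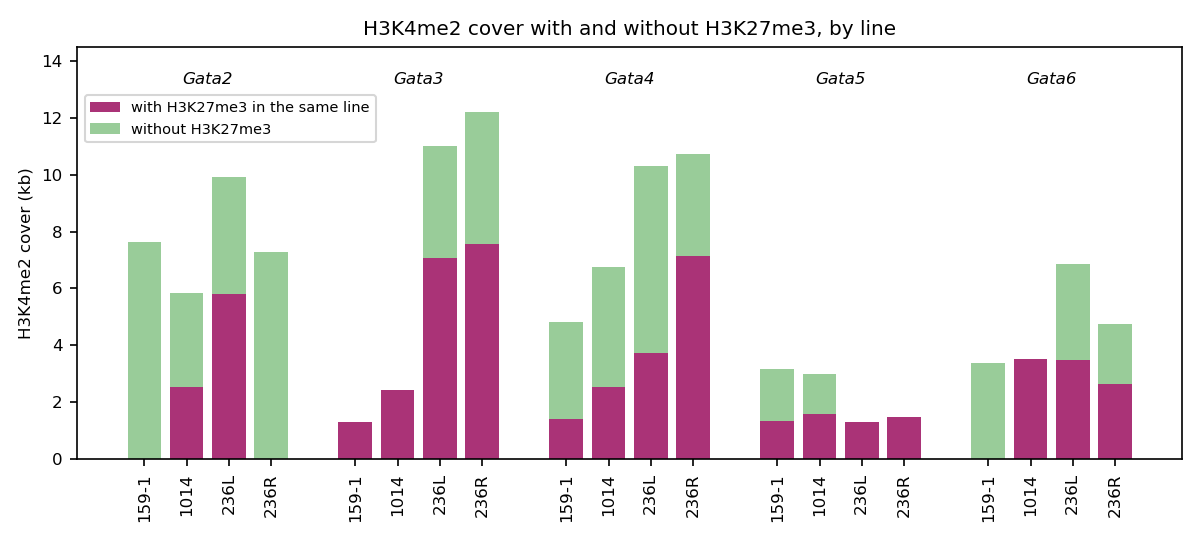
H3K4me2 cover (kb, vertical axis) of each Gata gene in each line as bars, split into the length that also carries H3K27me3 in the same line and the length that does not. At Gata3 the control bars hold no H3K4me2 without H3K27me3, and at Gata5 the mutant bars hold none.

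Genes were also ranked by how near their covered shares lay to those of a Gata gene over all 14 lists, as the root mean square difference in percentage points. Nearest to Gata3 were Sox9, a transcription factor of cartilage and epithelial progenitors, at 5.98 points, Ccnd2, a D-type cyclin, at 6.54 and Dusp15, a dual-specificity phosphatase, at 6.61. Nearest to Gata4 were Phf24 at 3.47, Pygo1, a Wnt pathway cofactor, at 3.87 and Rnf220, a ubiquitin ligase, at 3.90. Nearest to Gata5 were Ttc34 at 5.30, Lamc3, a laminin chain, at 5.51 and Prrx2, a homeobox gene of mesenchyme, at 6.84. Gata2 lay nearest to Fev, a factor of serotonergic neurons, at 7.18, Pitx3, a factor of dopaminergic neurons, at 7.42 and Itga2b, an integrin of megakaryocytes, at 7.54. Gata6 lay nearest to Xpa, a gene of nucleotide excision repair, at 3.25, Guca1b at 3.33 and Sowahd at 3.41.

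Genes that work with GATA factors were read in 3 lists. Of 13 heart and endoderm partners and targets, 6 had more H3K4me2 in the mutant lines and 0 had less, and 4 had less H3K27me3 and 0 had more, beside the shares of all genes given above (1.36% and 6.37%, 6.43% and 0.425%). Tbx20, a T-box factor of the heart, had H3K4me2 of 0.643, 0.579, 7.39 and 5.67 kb in 159-1, 1014, 236L and 236R. Hand2, a basic helix-loop-helix factor of heart and sympathetic neurons, had 0.805, 0, 7.16 and 5.19 kb, and Sox17, a factor of endoderm and endothelium, had 0, 0, 3.74 and 3.46 kb. Nkx2-5, Hand1 and Isl1, all cardiac factors, were the other 3 with more H3K4me2, and Nkx2-5, Tbx20, Hand1 and Hand2 were the 4 with less H3K27me3. H3K4me1 was counted higher at Hand2 and lower at Nppa, the natriuretic peptide gene that GATA4 activates, where it covered 11.8, 11.5, 1.61 and 1.42 kb.

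Of 12 cofactors and other GATA-type zinc finger genes, 1 had more and 1 less H3K4me1, 0 had more and 1 less H3K4me2, and 0 had more and 2 less H3K27me3. Over all genes the shares for more and less were 5.3% and 7.45% for H3K4me1, 1.36% and 6.37% for H3K4me2, and 0.425% and 6.43% for H3K27me3. Zfpm1, which encodes FOG1, the partner of GATA1 and GATA2 in blood, had less of both H3K4 marks, with H3K4me1 of 30.7, 37.9, 8.88 and 7.84 kb and H3K4me2 of 14.3, 14.4, 8.79 and 8.80 kb. Trps1, an atypical GATA-type repressor, had more H3K4me1, with 0.498, 0.436, 33.0 and 3.38 kb, most of it in 236L. Tal1, which joins GATA factors in the blood complex with Lmo2 and Ldb1, had H3K27me3 of 20.3, 30.8, 5.20 and 9.48 kb, and its relative Lyl1 5.31, 6.61, 0.670 and 2.31 kb. Of 12 blood and T cell partners and targets, 0 had more of any mark, beside those same shares. Erg and Tcf7 had less H3K4me1 (2 of 12, beside 7.45% of genes), and Runx1, Il1rl1 and Notch1 less H3K27me3 (3 of 12, beside 6.43%). Il4, Il5 and Il13, the cytokine genes that GATA3 activates in T helper cells, were not counted for any mark. Il4 had no H3K4me2 in any line, and Il5 had 0.27 kb in 236L alone. Il13 had it in every line, with 0.821, 1.53, 0.9 and 1.0 kb in 159-1, 1014, 236L and 236R. T cell and innate lymphoid markers had H3K4me2 of 12.9, 11.3, 14.3 and 10.8 kb in sum over 6 genes, and the genotypes overlapped in this sum. Among these genes, Cd8a, a T cell coreceptor gene, had no H3K4me2 in any line, and Cd3e and Il7r had it in some lines only. Cd4 had 4.93 to 6.06 kb, Cd3g 3.37 to 4.65 kb and Thy1 1.57 to 2.22 kb.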

How the data were processed

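ChIP-seq of 4 lines was used: 4 peak lists for each of 3 histone marks and 2 for KDM6A, 14 of 24 samples. The 10 input libraries were not analysed here. Per the submitters' processing notes, Bowtie2 2.4.2, MACS3 3.0.0a7 and the mm10 build were used. Which control track, peak threshold and duplicate filter were applied was not given in the sources used here. A deposited list belongs to 1 library, without pooling, and gives for each broad peak its position, a display score, the fold enrichment (a ratio) and the −log10 p and q values that the authors computed; the score was not used. The lowest deposited −log10 q in a list was 1.01 to 1.06.

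Peaks of each list were merged over the 19 autosomes, X and Y, and the covered length was taken in each gene body with 10 kb on each side (RefSeq, GRCm38.p6; Python 3.11.15, pandas 2.3.3). A promoter window counted as marked where peaks covered at least 50% of it. H3K4me1 has its own input libraries in the labels and was compared only among its own 4 lists, as was every mark. The deposited lists hold no counts, so a separation of 2 kb between the genotypes, an exact two-sided permutation test and, as an alternative, limma 3.58.1 (R 4.3.3) with Benjamini-Hochberg adjustment were used. The covered length and limma were tested on simulated data.

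All 5 members were named, with gene bodies in their windows, the 3 genes nearest to each over 14 lists, and list genes separated by at least 2 kb, up to 6 per list and mark. Other list genes in the text (Il4, Il5, Il13, Ptprc, Cd8a, Cd3e, Cd3g, Cd4, Thy1, Il7r, Insm1, Lmo2, Ldb1) were chosen after their values were seen. One neuroendocrine marker is not reported here. The members and lists were chosen with earlier results of these data known. Alternatives were other separations, windows, peak thresholds, equal covered length and leaving out each line.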

Additional observations from a re-analysis of the deposited data

How the results depend on the processing

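Counts of members separated by at least 2 kb were recomputed under other settings, each with the share of all genes at that setting. More H3K4me1 in the mutant lines went from 2 members to 1 (Gata3) with a separation of 5 kb (0.635% of genes) or with 50 kb on each side (12.8%), and to 0 with limma; leaving out a line gave 2 to 3 (7.86% to 29.7%). Less H3K4me1 went from 1 member to 0 with 2.5 kb on each side (6.09%) and 0 with limma, and leaving out a line gave 1 to 1 (8.72% to 15.2%). More H3K4me2 went from 2 members to 1 with 5 kb of separation (0.219%), 1 with 50 kb on each side (3.14%) and 0 with limma, and leaving out a line gave 2 to 4 (2.09% to 10.3%), with 4 without 236R. Less H3K4me2 went from 0 members to 1 (Gata5) with any separation (25.4%) and 1 with 50 kb on each side (12.4%). More H3K27me3 went from 0 members to 1 with any separation (2.13%) and 2 (Gata5 and Gata6) at equal covered length (0.877%), and leaving out a line gave 0 to 2 (0.471% to 4.02%). Less H3K27me3 went from 2 members to 1 with 5 kb of separation (3.52%), 1 (Gata3) at equal covered length (1.45%) and 0 with limma, and leaving out a line gave 2 to 3 (6.99% to 16.9%). The cause was not tested.

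Mean differences, mutant minus control, took the other sign in 11 of 120 recomputed values. With 50 kb on each side, H3K4me1 was -8.17 kb at Gata2 and -1.90 kb at Gata4, H3K4me2 was -1.22 kb at Gata2 and H3K27me3 was -5.18 kb at Gata5. For H3K27me3, Gata2 was 4.51 kb at equal covered length, 4.51 kb without 1014 and 2.92 kb without 236R, and -7.68 to 4.51 kb over all lines left out, Gata6 was -2.20 kb without 159-1 and up to 6.31 kb without 1014, and Gata5 was -0.105 kb with a −log10 q of at least 3 and -0.0605 kb with 2.5 kb on each side. H3K4me1 at Gata4 was -2.05 kb without 236R and 5.79 kb without 236L. No value at Gata3 took the other sign. No paired analysis was possible because the lines of the 2 genotypes are separate lines that share no number. With 2 lines for each genotype and no read counts, neither depth nor small differences could be judged.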

Other observations

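The surroundings of the genes were read out to 100 kb on each side, for segments of at least 0.5 kb with a mark in both lines of a genotype and in neither line of the other. Beyond the higher-coordinate end of Gata4 and outside its window, the control lines shared 17 such H3K27me3 segments, the last at chr14:63364376-63366540, and none overlapped a protein-coding gene body. At Gata3 there were 3, one of them at chr2:9901293-9901831. Around Gata5 the control lines shared 7 H3K4me1 segments outside the window. They included chr2:180260444-180262459 in Cables2 and chr2:180285213-180288069 in Rbbp8nl. The control lines also shared 7 H3K27me3 segments beyond the higher-coordinate end of Gata5, from chr2:180354329-180355014 to chr2:180422303-180423137, while within the window of Gata5 the mutant lines had more of this mark. Beyond the higher-coordinate end of Gata2 the control lines shared 6 H3K4me1 segments, from chr6:88223951-88224844 to chr6:88252928-88253570, none in a protein-coding gene body. At Gata6 a control-shared H3K4me1 segment at chr18:11035205-11035779 overlapped a control-shared H3K4me2 segment at chr18:11035114-11035746, outside the lower-coordinate end of the gene. None of these segment counts was set beside other genes or repeated at equal covered length. The H3K27me3 lists covered 45.4 Mb in 159-1 and 110.3 Mb in 1014, against 13.8 Mb in 236L and 30.5 Mb in 236R.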
